A study of Homo sapiens with 4 samples.

Results

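The integrated stress response and the charging of tRNA with amino acids were examined in human gastric cancer (GC) cells treated with isorhamnetin (ISO), a methylated flavonol made from quercetin. The genes were chosen by name. They are the protein-coding rows of the deposited table whose symbol is that of an aminoacyl-tRNA synthetase, of a transcription factor or regulator of the stress response, or of an enzyme of serine, one-carbon, proline, alanine, cysteine or asparagine metabolism that the response controls. The rule also takes in INHBE, STC2 and VLDLR, genes of secreted or surface proteins. It found 40 of the 2897 genes in the table. Of the 34 symbols that the rule spells out beside the synthetases, 23 were in the table. ASNS, ATF5, SESN2, VLDLR, CBS, SHMT1, MTHFD1, MTHFD2L, PYCR3, NUPR1 and JDP2 were not analysed here.

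The table holds 4 RNA-seq samples, an untreated and an ISO-treated sample of AGS-1 (cell line AGS in the labels) and of HGC-27, each labelled as wild type. AGS-1 is labelled as a gastric adenocarcinoma line and HGC-27 as a gastric carcinoma line, and both were grown in the same serum-containing medium. The labels give an ISO dose of 50 μM for 24 h and describe the control cells as untreated. The text of the study names a lower dose for the sequenced cells, so the dose is uncertain. It also speaks of duplicates, whereas the deposited table holds 1 column per condition and line, and whether a column pools duplicates is not given in the sources used here.

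Values are FPKM, fragments divided by gene length and by the total fragments of the library, with 1 library per condition and cell line. The libraries held between 15235004 and 20199425 fragments, recovered from the table. Fragments of the mitochondrial genome made up 9.43% of untreated AGS-1 and 14.3% with ISO, and 9.75% and 12.4% in HGC-27. The median log2 ratio of ISO to control over all genes was −0.29 (AGS-1) and −0.11 (HGC-27), so changes are also given relative to it. The 6 of 7 epithelial markers in the table (KRT8, KRT18, KRT19, EPCAM, CLDN4 and ELF3) summed to 2193 FPKM in untreated AGS-1 and 1415 under ISO, but to 4.59 and 3.75 FPKM in HGC-27, where KRT19 was at 0. The mesenchymal markers VIM and TWIST1, 2 of 5 in the table, summed to 0.697 and 0.860 FPKM in AGS-1 and 640 and 404 FPKM in HGC-27. COL1A1, a collagen gene of fibroblasts, had 9.71 and 6.83 FPKM, and 348 and 313 FPKM. The HGC-27 libraries were thus nearly without the epithelial markers of a carcinoma cell, and 0 of 3 leukocyte markers were in the table.

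Cells charge each tRNA with its amino acid through a dedicated aminoacyl-tRNA synthetase. When amino acids run short, when proteins misfold in the endoplasmic reticulum or when other stress signals arrive, kinases phosphorylate the initiation factor eIF2. This phosphorylation lowers translation in general but favours translation of the mRNA of ATF4, a transcription factor. ATF4, with C/EBP partners, then raises genes for amino acid synthesis, amino acid uptake, tRNA charging and for feedback. Much of the control of ATF4 acts on its protein, which RNA-seq does not measure.

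Genes of the stress response and of tRNA charging had lower values after ISO in both cell lines for 30 of 40 members (75%), against 56.2% of the 2883 genes whose mean reached 1 FPKM, and ATF4 itself was not among them. Within AGS-1, 36 of the 40 (90%) were lower under ISO, against 78.8% of all genes. Within HGC-27 the count was 31 (77.5%), against 64.2%. With upper-quartile scaling these numbers became 27 and 26, while the median log2 ratio of all genes rose to 0.10 and 0.03. Below that median lay 30 and 27 of the 40 with this scaling, and 28 and 27 without it. The 40 genes together took 1.39% of the fragments of untreated AGS-1 and 0.921% with ISO, and 1.51% of the HGC-27 control and 1.20% with ISO. All genes in the table took 78.5% and 64.4% of the fragments in AGS-1, and 61.0% and 60.0% in HGC-27, so the AGS-1 control stands apart, and its part in the drop of the members was not tested. For the 40 genes the median log2 ratio was −0.56 (AGS-1) and −0.31 (HGC-27), which is −0.27 and −0.20 relative to all genes. In 23 of the 40 (57.5%) the ratio lay below the median of all genes in both lines, against 32.4% of all genes. Fewer cells making a transcript and less transcript per cell cannot be told apart in such bulk samples. All 40 passed this filter on low values.

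A change of at least 2-fold (a log2 ratio of FPKM + 1 of at least 1 in size) served as the threshold within a cell line, where no test is possible. In AGS-1, 4 of the 40 fell by that much (TRIB3, INHBE, SARS1 and YARS1), against 6.66% of all genes, and 0 rose, against 0.832%. In HGC-27, 2 fell (INHBE and CHAC1), against 0.937%, and 0 rose, against 0.555%. INHBE was the gene past the threshold in both lines. With upper-quartile scaling the falls numbered 2 (AGS-1) and 1 (HGC-27), beside 42 and 15 of the 2883 genes. A fall of at least 0.5 relative to the median in both lines was seen for INHBE, CEBPB, DDIT4 and PSAT1, 4 of 40 against 1.8% of all genes.

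**Figure D1:**
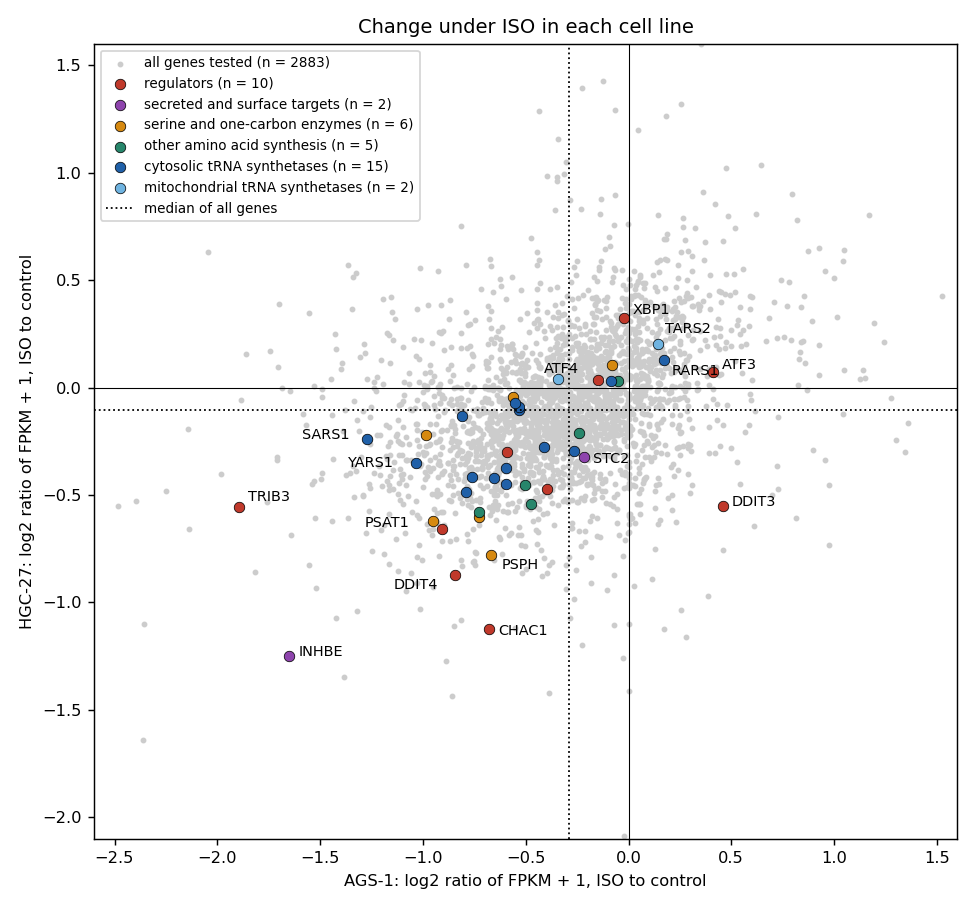
Log2 ratio of FPKM + 1 between ISO and control in AGS-1 (x axis) and in HGC-27 (y axis), 1 library per condition. Grey points are the 2883 genes tested, of which 12 lie outside the axes, coloured points are the 40 stress response and tRNA charging genes by role, and dotted lines mark the median of all genes (−0.29 and −0.11). Most coloured points sit below and to the left of both dotted lines, INHBE and TRIB3 farthest, and DDIT3 lies to the right of zero in AGS-1 and below zero in HGC-27.

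A change common to AGS-1 and HGC-27 was tested by a limma fit of log2(FPKM + 1) that held cell line and treatment as terms. With 2 libraries per treatment, the 1 residual degree of freedom is the difference between the lines in their response to ISO. This test leans on that spread, borrowed across genes, and its p-values do not measure a spread between replicate cultures. The comparison of the cell lines below uses the same spread. It called 1 of the 40 genes lower under ISO after Benjamini-Hochberg adjustment over all 2883 genes (INHBE), against 0.832% of all genes, and 0 higher, against 0.104%. At an unadjusted limma p under 0.05, 19 of the 40 were lower, against 17.8% of all genes, and 0 were higher, against 2.22%. The call of INHBE was lost with upper-quartile or median-of-ratios scaling, without the cell line term and when fragments of the mitochondrial genome were left out of the library size. Over the 9 alternatives tried the adjusted p of INHBE by limma ranged from 0.000199 to 1.00.

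**Figure D2:**
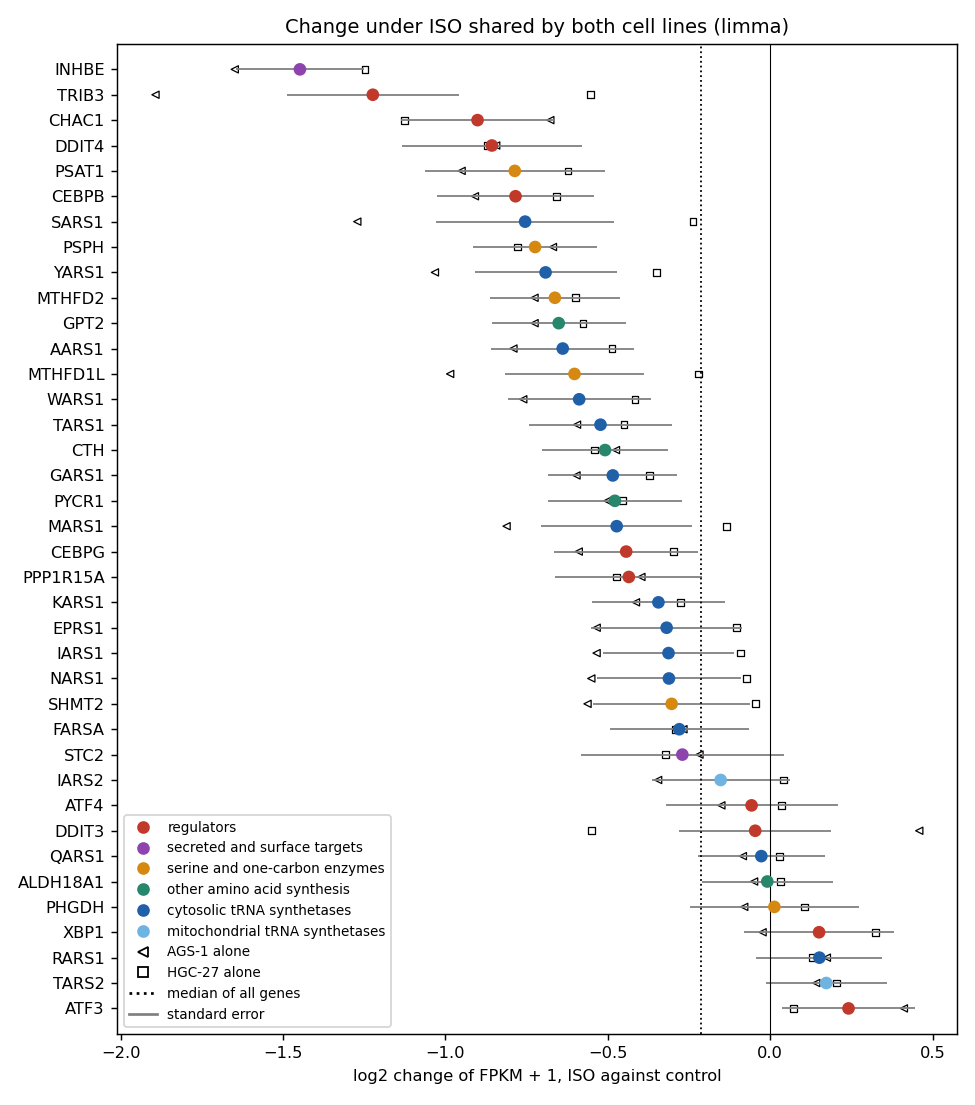
Log2 change of FPKM + 1 under ISO shared by both cell lines (coloured circles, limma, with standard errors as grey bars) for 38 of the 40 genes, with the ratios of AGS-1 alone (open triangles) and HGC-27 alone (open squares). The dotted line marks the median of all genes (−0.21). INHBE lies at −1.45 and TRIB3 at −1.22, whereas ATF4, DDIT3, QARS1, ALDH18A1 and PHGDH lie near zero and ATF3 at 0.24.

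The promoters of these genes were searched for the C/EBP-ATF response element, the sequence through which ATF4 and C/EBP proteins bind many of their targets. The letters TGATGNAA were searched on both strands from 250 bases before to 50 bases after the first transcript start listed by RefSeq (GRCh38.p14). A promoter was listed for 32 of the 40 genes, and 8 of them (25%) held the letters. INHBE, PSPH, SHMT2, GPT2, PYCR1 and YARS1 were among those with no entry. Of the 2211 promoters of all other genes deposited 1.63% held the letters, and of all 27305 promoters 3.67%. When every listed start of a gene was searched, the shares were 31.2%, 2.17% and 4.46%, with CEBPG and GARS1 joining the matches. The 8 sites are shown because 7 of them share the form TGATGCAA or its reverse complement. Most of these 7 lie in cytosolic tRNA synthetase genes (AARS1, IARS1, MARS1, NARS1 and TARS1), the others in CHAC1 and MTHFD1L. Each is printed 5′ to 3′ on the strand of the gene, with the 8 matching letters in capitals and 11 bases on either side.
AARS1, chr16:70289675-70289704, minus strand: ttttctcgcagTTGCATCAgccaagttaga
CHAC1, chr15:40953251-40953280, plus strand: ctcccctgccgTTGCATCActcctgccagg
IARS1, chr9:92293692-92293721, minus strand: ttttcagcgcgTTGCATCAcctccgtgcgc
MARS1, chr12:57488053-57488082, plus strand: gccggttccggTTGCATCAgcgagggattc
TARS1, chr5:33440956-33440985, plus strand: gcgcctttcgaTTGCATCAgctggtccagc
MTHFD1L, chr6:150866346-150866375, plus strand: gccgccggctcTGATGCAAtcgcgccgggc
NARS1, chr18:57621804-57621833, minus strand: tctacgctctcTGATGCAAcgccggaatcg
ATF3, chr1:212565205-212565234, plus strand: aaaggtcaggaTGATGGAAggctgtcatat

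The first 5 carry the element on the strand opposite to the gene and the last 3 on its own strand, and ATF3 holds the form TGATGGAA. In IARS1, MARS1, TARS1 and NARS1 the letters lie within 22 bases of the transcript start. In MTHFD1L, AARS1, ATF3 and CHAC1 they lie between positions −209 and −122, counted from the start. The exact form TGATGCAA was found in 21.9% of the 32 promoters, and in 0.588% of those of the other genes in the table. The 8 genes with the letters had median log2 ratios of −0.64 (AGS-1) and −0.18 (HGC-27), and 7 of them were lower in both lines, all but ATF3. The 24 genes without them had medians of −0.41 and −0.30, and 15 were lower in both. Of all genes tested, 56.2% were lower in both lines, and the counts with and without the letters were not compared by a test. These medians do not separate the genes with the letters from those without them in one direction. A match is a description of letters, and binding was not measured.

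Among the transcription factors and regulators, 10 genes were in the table. At an unadjusted limma p under 0.05, 4 of them were lower (TRIB3, CHAC1, DDIT4 and CEBPB), against 17.8% of all genes. ATF4 (ENSG00000128272, chromosome 22, 39519695 to 39522683), the central transcription factor, was measured at 299 FPKM in untreated AGS-1 and 269 with ISO, and at 229 and 235 FPKM in HGC-27. Both ATF4 ratios lay slightly above the median of all genes (0.14 and 0.14 relative to it), and its shared log2 change was −0.06 with a standard error of 0.265 (adjusted p 0.915 by limma). It turned positive, to 0.23, with upper-quartile scaling.

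TRIB3 (ENSG00000101255, chromosome 20, 362835 to 397559), a pseudokinase induced by ATF4 that restrains it in turn, fell from 13.2 to 2.82 FPKM in AGS-1. In HGC-27 it was 118 FPKM in the control and 80.0 with ISO. Both HGC-27 libraries lie above both AGS-1 libraries, so the control and ISO values overlap across lines but not within them. The log2 ratios were −1.89 and −0.55, and the shared change of −1.22 (standard error 0.266) had an adjusted p of 0.0510 by limma, just above 0.05 and so not called. Over the alternatives that kept the cell line term, the adjusted p of TRIB3 by limma ranged from 0.00497 to 0.318. It was under 0.05 with a pseudocount of 0.1 FPKM and with a filter at a mean of 10 FPKM.

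CHAC1 (ENSG00000128965, chromosome 15, 40952962 to 40956512), which degrades glutathione and is a target of ATF4 and DDIT3, fell from 82.2 to 37.2 FPKM in HGC-27. In AGS-1 it had 200.2 FPKM in the control and 125 with ISO. The log2 ratios were −1.13 in HGC-27 and −0.68 in AGS-1, the reverse of the order for TRIB3. The shared change was −0.90 with a standard error of 0.236 and an adjusted p of 0.0919 by limma. For CHAC1 the adjusted p by limma ranged from 0.0375 to 0.318 over the alternatives that kept the cell line term. It was under 0.05 in the same 2 of them.

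DDIT4, an inhibitor of mTORC1 signalling that several stresses induce, had the highest FPKM of the 10 regulators in both control libraries. It had 456 FPKM in untreated AGS-1 and 254 with ISO, and 510 and 278 FPKM in HGC-27, so here both ISO libraries lie below both controls. Its log2 ratios of −0.84 and −0.87 were the closest match between the lines among the genes with a relative fall of at least 0.5. CEBPB, a partner of ATF4 at its target sites, had 236 and 125 FPKM in AGS-1 and 122 and 76.9 FPKM in HGC-27. CEBPG, another such partner, had 102 and 67.7 FPKM, and 67.1 and 54.4 FPKM. The adjusted p of the shared change by limma was 0.132 for DDIT4, 0.123 for CEBPB and 0.279 for CEBPG, with no call.

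PPP1R15A, the stress-induced subunit of the phosphatase that reverses eIF2 phosphorylation, had 250.3 FPKM in untreated AGS-1 and 190 with ISO. In HGC-27 its levels were 46.6 and 33.3 FPKM, below both AGS-1 libraries. XBP1, a transcription factor of the unfolded protein response, had 115 and 114 FPKM in AGS-1 and 68.0 and 85.4 FPKM in HGC-27. ATF3, a stress-induced repressor and activator, had 54.9 FPKM in untreated AGS-1 and 73.3 with ISO, and 24.3 and 25.6 FPKM in HGC-27. Relative to all genes the ratio of ATF3 was 0.70 (AGS-1) and 0.18 (HGC-27). The unadjusted limma p was 0.0782 for PPP1R15A, 0.528 for XBP1 and 0.259 for ATF3.

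DDIT3, which encodes the pro-apoptotic factor CHOP, had ratios of opposite sign in the lines. It had 20.3 FPKM in untreated AGS-1 (405 fragments) and 28.3 with ISO (591 fragments). In HGC-27 it had 27.2 FPKM (718 fragments) and 18.2 FPKM (407 fragments). The counting interval of the log2 ratio at 95% confidence was 0.29 to 0.66 in AGS-1 and −0.76 to −0.40 in HGC-27. It covers counting error only. DDIT3 shares 355 bases of exon with MARS1 on the opposite strand, and how the counting treated strand is not given in the sources used here. MARS1 had 99.6 and 56.3 FPKM in AGS-1 and 47.9 and 43.6 FPKM in HGC-27. Its part in the DDIT3 values was not tested.

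**Figure D3:**
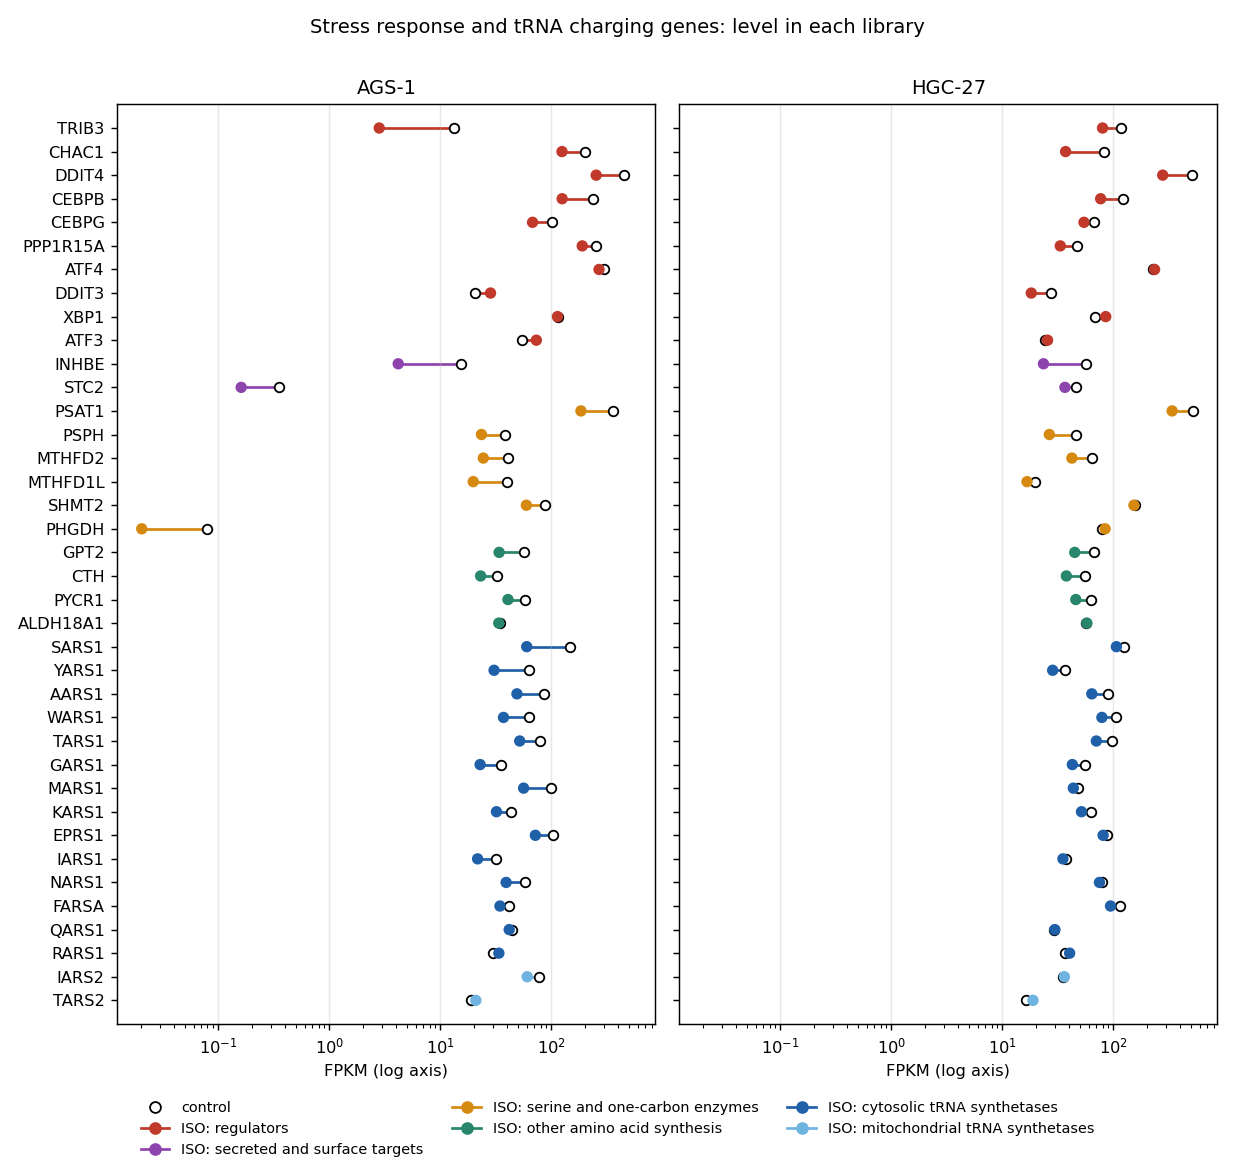
FPKM on a log axis for 38 of the 40 genes in AGS-1 (left) and HGC-27 (right), with open circles for the control and filled circles for the ISO library, 1 library each, coloured by role. The filled circles lie to the left of the open ones for 34 genes in AGS-1 and for 29 in HGC-27. PHGDH and STC2 lie under 1 FPKM in AGS-1.

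Secreted targets of the response were INHBE and STC2. INHBE (ENSG00000139269, chromosome 12, 57452323 to 57459280) encodes the beta E subunit of inhibins and activins, and its gene responds to ATF4. Its levels were 15.2 FPKM in untreated AGS-1 and 4.18 with ISO, from 707 and 203 fragments, and 57.1 and 23.5 FPKM in HGC-27, from 3515 and 1221 fragments. The control value exceeded the ISO value in each line, while the AGS-1 control lay below HGC-27 with ISO. With ISO, INHBE had 27.4% of its control FPKM in AGS-1, and 41.1% in HGC-27. Its shared log2 change was −1.45 with a standard error of 0.197 and an adjusted p of 0.00633 by limma, lower in 2 of 2 cell lines. Ordered from the lowest shared change, INHBE was number 7 of the 2883 genes.

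STC2, a secreted glycoprotein, had 0.350 and 0.161 FPKM in AGS-1, from 27 and 13 fragments, and 46.1 and 36.6 FPKM in HGC-27. In AGS-1 the added pseudocount hides most of its ratio, and the counting interval ran from −2.20 to −0.12. In HGC-27 its log2 ratio was −0.32.

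The enzymes that make serine and feed the one-carbon cycle comprised 6 genes, with median log2 ratios of −0.70 (AGS-1) and −0.41 (HGC-27). At an unadjusted limma p under 0.05, 4 of the 6 were lower (PSAT1, PSPH, MTHFD2 and MTHFD1L), against 17.8% of all genes. None of the 6 passed after adjustment. PSAT1 (chromosome 9, 78297125 to 78330093), the transaminase of serine synthesis, was the most abundant at 358 FPKM in untreated AGS-1 and 185 with ISO, and 522 and 338 FPKM in HGC-27. Both ISO libraries lie below both control libraries. Its log2 ratios were −0.95 and −0.62, and its adjusted p was 0.153 by limma. PSPH, the phosphatase that completes serine synthesis, had 37.9 and 23.5 FPKM in AGS-1 and 46.2 and 26.5 FPKM in HGC-27, with an adjusted p of 0.0997 by limma. Here too both treated libraries were below both untreated libraries.

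MTHFD2, the mitochondrial one-carbon dehydrogenase, had 41.0 and 24.4 FPKM in AGS-1 and 64.7 and 42.3 FPKM in HGC-27. MTHFD1L, the mitochondrial formate-producing enzyme, had 40.2 and 19.8 FPKM in AGS-1, a log2 ratio of −0.99 just short of the threshold, and 19.6 and 16.7 FPKM in HGC-27. SHMT2, the mitochondrial serine hydroxymethyltransferase, had 88.5 and 59.6 FPKM in AGS-1 and 158 and 153 FPKM in HGC-27. The log2 ratios of MTHFD1L and SHMT2 were thus closer to zero in HGC-27 (−0.22 and −0.04) than in AGS-1 (−0.99 and −0.56), a difference that could not be tested.

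PHGDH (ENSG00000092621, chromosome 1, 119648411 to 119744218), the first enzyme of serine synthesis, was nearly absent from AGS-1. It had 11 fragments in untreated AGS-1 and 3 with ISO, against 14527 and 13224 fragments in HGC-27. In FPKM these were 0.0786 and 0.0205 in AGS-1 and 78.3 and 84.3 in HGC-27. In AGS-1 the downstream enzymes PSAT1 and PSPH were thus measured at 358 and 37.9 FPKM beside almost no PHGDH. The HGC-27 value of PHGDH was higher with ISO, unlike that of the other serine enzymes, at a log2 ratio of 0.11.

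The other enzymes of amino acid synthesis comprised 5 genes, with median log2 ratios of −0.47 (AGS-1) and −0.46 (HGC-27). GPT2, the mitochondrial alanine transaminase, had 56.7 and 33.9 FPKM in AGS-1 and 67.5 and 44.9 FPKM in HGC-27. CTH, which makes cysteine from cystathionine, had 32.5 and 23.1 FPKM, and 55.4 and 37.8 FPKM. PYCR1, which completes proline synthesis in mitochondria, had 58.0 and 40.7 FPKM, and 63.3 and 45.9 FPKM. These 3 of the 5 genes were lower at an unadjusted limma p under 0.05 (0.00788, 0.0221 and 0.0383), against 17.8% of all genes. They did not pass after adjustment. ALDH18A1, which starts proline synthesis, had 34.8 and 33.6 FPKM in AGS-1 and 56.4 and 57.7 FPKM in HGC-27 (unadjusted limma p 0.966).

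Cytosolic tRNA synthetases formed the largest group, with 15 genes. Together they took 0.628% of untreated AGS-1 and 0.389% with ISO, and 0.664% and 0.549% of the HGC-27 libraries, beside the fall in AGS-1 from 78.5% to 64.4% for all genes in the table. Their median log2 ratio was −0.59 (AGS-1) and −0.28 (HGC-27), and 13 of the 15 were lower in both lines, where 56.2% of all genes were. SARS1 (ENSG00000031698, chromosome 1, 109213918 to 109238182), the seryl-tRNA synthetase, fell in AGS-1 from 146 to 60.0 FPKM and had 126 and 107 FPKM in HGC-27. YARS1 (ENSG00000134684, chromosome 1, 32775237 to 32817380), the tyrosyl-tRNA synthetase, fell in AGS-1 from 63.4 to 30.5 FPKM and had 36.5 and 28.4 FPKM in HGC-27. For both genes each ISO library lies below both control libraries.

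AARS1, WARS1, TARS1 and GARS1, which charge alanine, tryptophan, threonine and glycine, had unadjusted limma p-values between 0.0131 and 0.0337. AARS1 had 85.5 and 49.0 FPKM in AGS-1 and 90.1 and 64.0 FPKM in HGC-27. WARS1 had 63.5 and 37.1 FPKM, and 106 and 78.9 FPKM. Of the 15, 7 were lower at an unadjusted limma p under 0.05, SARS1 and YARS1 among them, against 17.8% of all genes. None of the 15 passed after adjustment. MARS1, EPRS1, IARS1 and NARS1, the enzymes for methionine, for glutamate and proline, for isoleucine and for asparagine, had log2 ratios of −0.81 to −0.53 in AGS-1 and of −0.13 to −0.07 in HGC-27. KARS1, for lysine, and FARSA, a subunit of the phenylalanine enzyme, had −0.41 and −0.27 in AGS-1 and −0.28 and −0.29 in HGC-27. The levels of FARSA were 41.7 and 34.5 FPKM in AGS-1, both below the 116 and 94.3 FPKM of HGC-27.

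RARS1, the arginyl-tRNA synthetase, was the cytosolic enzyme with higher values in both lines. It had 29.7 and 33.7 FPKM in AGS-1 and 36.9 and 40.4 FPKM in HGC-27 (unadjusted limma p 0.449). QARS1, for glutamine, had 44.3 and 41.7 FPKM, and 29.1 and 29.7 FPKM. Of the synthetases counted as mitochondrial, which serve translation inside mitochondria, TARS2 and IARS2 were in the table. The split rests on the symbol alone, so enzymes counted as cytosolic may serve mitochondria too. TARS2 had 18.9 and 20.9 FPKM in AGS-1 and 16.3 and 18.9 FPKM in HGC-27. IARS2 had 77.3 and 60.6 FPKM, and 35.2 and 36.2 FPKM. Neither mitochondrial enzyme was called by limma, and TARS1 and TARS2, the cytosolic and mitochondrial enzymes for the same amino acid, had shared changes of −0.52 and 0.17. The lengths in the table for GARS1, IARS1, MTHFD2 and AARS1 were 4.18, 3.03, 2.35 and 2.28 times the merged exons of GENCODE 29. This lowers their FPKM against other genes. It leaves ratios of FPKM alone unchanged but slightly understates the ratios of FPKM + 1 given here.

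Across the 40 genes the log2 ratios of the 2 lines had a Pearson's r of 0.59 and a Spearman's rho of 0.64, and over all 2883 genes tested 0.36 and 0.38. This describes genes that share their 4 libraries and are not independent.

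Other genes of the pathway were counted from lists. Of 10 amino acid transporters, 9 were in the table, with median log2 ratios of −0.77 (AGS-1) and −0.36 (HGC-27). SLC43A1, which carries large neutral amino acids, was the transporter called lower by limma, against 0.832% of all genes. It fell in AGS-1 from 14.9 to 4.43 FPKM and had 45.9 and 25.5 FPKM in HGC-27 (shared change −1.19, standard error 0.216, adjusted p 0.0283 by limma). SLC7A5, of the same substrate class, fell in AGS-1 from 419 to 181 FPKM and had 287 and 314 FPKM in HGC-27. Of 15 genes of eIF2, eIF2B, their kinases and 4E-BP1, 7 were in the table, with medians of −0.25 and −0.19, and limma called 0 of them. At an unadjusted limma p under 0.05, 1 was lower and 0 were higher, against 17.8% and 2.22% of all genes. EIF4EBP1, a repressor of translation and target of ATF4, fell in AGS-1 from 291 to 136 FPKM and had 261 and 163 FPKM in HGC-27. AIMP2 was the 1 scaffold protein of the multisynthetase complex listed, with 18.9 and 13.8 FPKM in AGS-1 and 63.1 and 51.1 FPKM in HGC-27.

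Genes of endoplasmic reticulum stress were also counted. Of 17, 11 were in the table, with median log2 ratios of −0.27 (AGS-1) and 0.02 (HGC-27), or 0.02 and 0.13 relative to all genes. HSPA5, the chaperone BiP, had 297 and 267 FPKM in AGS-1 and 122 and 141 FPKM in HGC-27. In AGS-1, HSP90B1 fell from 252 to 117 FPKM and PDIA4 from 413 to 206 FPKM. In HGC-27 these genes had 40.8 and 35.9 FPKM, and 221 and 191 FPKM. They were the 2 of the 11 that fell at least 2-fold in AGS-1, against 6.66% of all genes. Of the 11, 4 were lower in both lines, against 56.2% of all genes. Higher in both lines were 2 (SEL1L and SEC61B), beside 375 of the 2883 genes. Limma called 0 of the 11. At an unadjusted limma p under 0.05, 1 was lower and 0 were higher, against 17.8% and 2.22% of all genes.

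Several of these genes differed between the cell lines. In the limma fit with treatment as a term, 9 of the 40 were higher in AGS-1, against 32.2% of all genes, and 14 were higher in HGC-27, against 24.7%. With upper-quartile scaling 6 of the 40 were higher in AGS-1, against 27.4% of all genes, and 20 in HGC-27. With median-of-ratios scaling these counts became 9, against 31.3% of all genes, and 17. The shares of all genes higher in HGC-27 were not counted for these scalings. In 98.1% of the genes in the table the mean reached 10 FPKM, so a gene listed in spite of a low value in one line had to be high in the other. PHGDH, STC2, TRIB3 and INHBE, which averaged under 10 FPKM in AGS-1, are such genes, and all 4 belong to the 14. The 5 called genes furthest towards HGC-27 were PHGDH (a log2 difference of −6.29), STC2 (−5.07), TRIB3 (−3.74), INHBE (−2.04) and FARSA (−1.44). The 5 called genes furthest towards AGS-1 were PPP1R15A (2.44), CHAC1 (1.497), ATF3 (1.31), IARS2 (0.92) and CEBPB (0.82).

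Of the 10 regulators, 5 were called higher in AGS-1 and 1 in HGC-27 (TRIB3). Of the 6 serine and one-carbon enzymes, 4 were called higher in HGC-27, PHGDH among them, and MTHFD1L in AGS-1. ATF4 had a log2 difference of 0.29 between the lines and an adjusted p of 0.380 by limma. Of the cytosolic synthetases, MARS1 and QARS1 were higher in AGS-1 and FARSA, WARS1, GARS1, NARS1 and KARS1 in HGC-27.

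**Figure D4:**
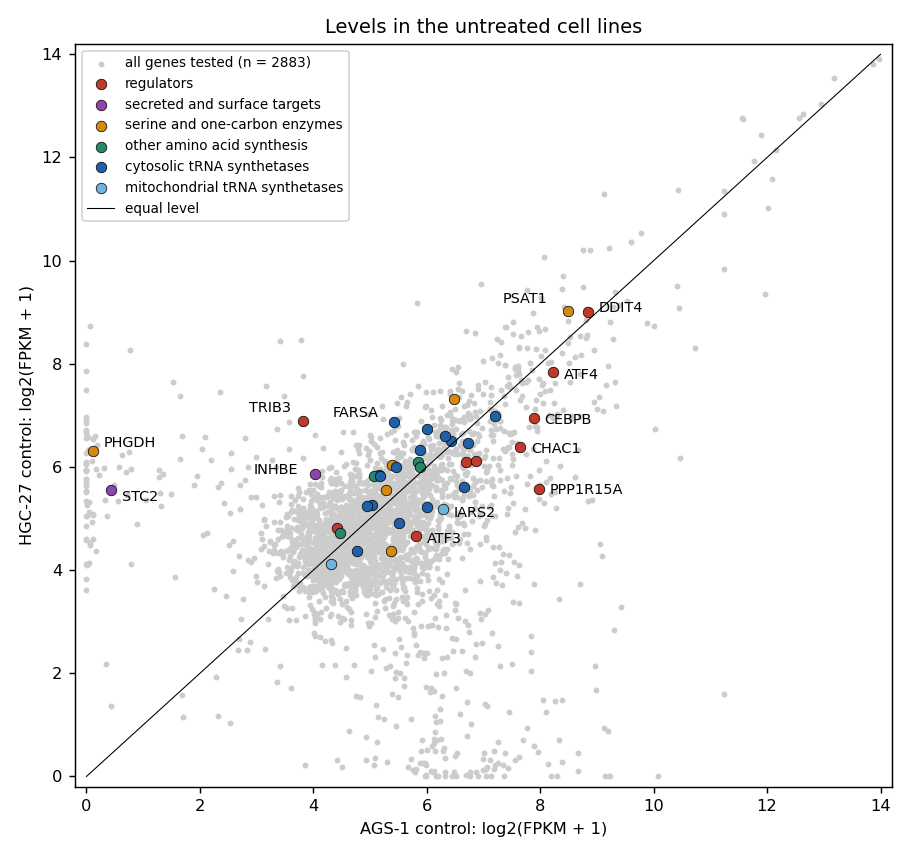
Levels in the control libraries as log2(FPKM + 1), AGS-1 on the x axis and HGC-27 on the y axis, for the 2883 genes tested (grey) and the 40 stress response and tRNA charging genes (coloured by role). The line marks equal levels, PHGDH and STC2 lie at the left edge, and PPP1R15A, CHAC1 and CEBPB lie below the line.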

How the data were processed

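Per the labels, CASAVA 1.8 and HISAT2 were used with GRCh38. The counting tool, the annotation and the selection of genes are not given in the sources used here. The authors deposited 1 table of FPKM values with the length of each gene. In each library the product of FPKM and length took whole multiples of 1 step for 100% of values (tolerance 0.01 fragments, or 1e-06 of the count where larger), which gave back fragments. The floor of 3 fragments equals 1.49e-05% to 1.97e-05% of a library. Intervals (exact Clopper-Pearson, 95%) cover counting error only.

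Ratios used log2(FPKM + 1), which understates changes of low genes, for the 2883 genes whose mean reached 1 FPKM. limma 3.58.1 in R 4.3.3 (lmFit, eBayes with trend) was fitted to all of them, with cell line and treatment as terms, with calls at an adjusted p (Benjamini-Hochberg) under 0.05. The fit was also run on simulated counts with equal ISO effects in both lines, which does not show how it performs on these data. An interaction term leaves no residual degree of freedom. No source says whether cultures were independent. Genes with all 4 values were those past 2-fold in a line, called by limma, 0.5 below or above the median in both lines, at the ends of the cell line difference, or regulators. The others given in full (MARS1, PSPH, MTHFD2, MTHFD1L, SHMT2, GPT2, CTH, PYCR1, ALDH18A1, AARS1, WARS1, RARS1, QARS1 and TARS2), and the genes of other lists, were picked with their values in view. The members, lists and tests were chosen with earlier results of these data known. Python 3.11.15, scipy 1.17.1 and matplotlib 3.10.9 were used for the rest. Alternatives were pseudocounts of 0.1 and 5 FPKM, median-of-ratios and upper-quartile scaling, no filter or a mean of at least 10 FPKM, no block, and no trend. Scaling to fragments outside the mitochondrial genome was added after seeing the data.

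Gene annotation was compared with GENCODE 29, which held all 40 genes, 14 of them with the same ends. There, 13 of the 40 have pseudogenes named after them and 13 share exon bases with a gene on the opposite strand, so their fragments may be split. Values of 2 members entered every count and median and are not reported here by gene.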

Additional observations from a re-analysis of the deposited data

Results flagged for a closer look

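DDIT3 was set apart because its AGS-1 ratio was positive (0.46) and its HGC-27 ratio negative (−0.55), with counting intervals on opposite sides of 0. The log2 ratios of the lines differed by 1.01, and this difference was not tested, since 1 library per condition leaves no spread.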

How the results depend on the processing

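The number of the 40 genes called lower under ISO by limma was 1, and became 4 with a pseudocount of 0.1 FPKM or a mean of at least 10 FPKM (CHAC1, INHBE, PSPH and TRIB3). It was 0 with median-of-ratios scaling, upper-quartile scaling, no cell line block and scaling to fragments outside the mitochondrial genome. At an unadjusted limma p under 0.05, these fits had 14, 11, 1 and 16 of the 40 lower. The shares of all genes were 10.7%, 5.45%, 0.277% and 11.9%. With upper-quartile scaling 4 of the 40 were higher at that p. Of all genes, 24 were called lower and 3 higher in the reported fit. These became 99 and 8 with a pseudocount of 0.1 FPKM, 93 and 11 with the stricter filter, 9 and 3 with a pseudocount of 5 FPKM, 4 and 2 without a filter and without a trend, and 0 and 0 in the other 4 fits. INHBE had a shared change between −1.56 and −1.13 in the 9 alternatives. Of the 40, 2 were at least 2-fold lower in AGS-1 with median-of-ratios or upper-quartile scaling, beside 72 and 42 of all genes. In HGC-27 it was 1 of the 40 with upper-quartile scaling, beside 15 of all genes. Without the treatment term, 4 of the 40 were called higher in AGS-1, against 24.2% of all genes, and 7 of the 40 in HGC-27. The share of all genes higher in HGC-27 was not counted for that fit. The median ratio of the 40 genes relative to all genes stayed between −0.28 and −0.24 in AGS-1, and between −0.21 and −0.19 in HGC-27, under the scaling, pseudocount and filter alternatives.

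The shared change turned sign with median-of-ratios scaling, upper-quartile scaling and the scaling outside the mitochondrial genome for ATF4 (0.11, 0.23 and 0.00355) and DDIT3 (0.12, 0.23 and 0.0125). It also did with the first and the second scaling for IARS2 (0.0164 and 0.13), with upper-quartile scaling for FARSA (0.00294) and with a pseudocount of 0.1 FPKM for PHGDH (−0.23). None of these genes was called. The cause was not tested. The median of all genes in AGS-1 moved from −0.29 to −0.03 with median-of-ratios and to 0.10 with upper-quartile scaling, and the split of all genes past 2-fold there from 24 higher and 192 lower to 50 and 72, and 60 and 42. Leaving out a library was not run, because no residual degree of freedom remains.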
